A study of Mus musculus with 12 samples.

Results

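The insulin-like growth factor (IGF) axis was described through 10 listed genes: the ligand gene Igf1, the receptor genes Igf1r, Insr and Igf2r, and the binding protein genes Igfbp2, Igfbp3, Igfbp4, Igfbp5, Igfbp6 and Igfbp7. They were taken by name from the 55536 genes counted, and all 10 passed the low-count filter among 19213 genes tested. Polyadenylated RNA was sequenced from segments 1, 2 and 3 of the epididymis of wild-type mice, counted from the end nearest the testis. Ligated tissue had a suture around the efferent ducts, which carry sperm and fluid from the testis, and control tissue was not ligated. Every group had 2 libraries, with 1 sequenced in batch 3017 and 1 in batch 3097, and a library pooled tissue of 2 mice. The sources used here do not give the age of the mice, the time after ligation, or whether ligated and control tissue came from the same mice. The spread behind the p-values is that of pools rather than of single mice.

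IGF1 acts through IGF1R, a receptor tyrosine kinase that recruits IRS and SHC adaptors and so feeds the PI3K to AKT to mTOR route and the RAS to ERK route. INSR, the insulin receptor, is its closest relative and can pair with it. IGF2R is of another kind: it carries no kinase, takes IGF2 up for breakdown and sorts lysosomal enzymes. Most extracellular IGF is held by binding proteins, which extend its life, keep it from the receptor, or release it when proteases cut them. The initial part of the epididymis is known to depend on factors from the testis that reach it through the lumen, and ERK activity there is known to need them.

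The sequences just before the RefSeq start sites of 4 members are shown as examples of members called after ligation in segment 1: Igf1r, Igfbp3 and Igfbp4, which were lower there, and Igfbp6, which was higher. Each covers 250 bases 5′ to 3′ on the gene's strand, from the RefSeq promoter table on GRCm38.p6. The windows are Igf1r at chr7:67952007-67952256 (plus strand), Igfbp3 at chr11:7213924-7214173 (minus), Igfbp4 at chr11:99040994-99041243 (plus) and Igfbp6 at chr15:102143936-102144185 (plus). Capitals mark a GC box (GGGCGG) or a TATA box (TATAAA) on either strand.
Igf1r: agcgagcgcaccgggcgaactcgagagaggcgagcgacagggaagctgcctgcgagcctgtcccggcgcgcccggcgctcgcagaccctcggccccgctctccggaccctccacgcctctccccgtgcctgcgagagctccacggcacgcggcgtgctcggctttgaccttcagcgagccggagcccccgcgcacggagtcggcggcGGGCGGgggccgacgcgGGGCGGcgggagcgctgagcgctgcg
Igfbp3: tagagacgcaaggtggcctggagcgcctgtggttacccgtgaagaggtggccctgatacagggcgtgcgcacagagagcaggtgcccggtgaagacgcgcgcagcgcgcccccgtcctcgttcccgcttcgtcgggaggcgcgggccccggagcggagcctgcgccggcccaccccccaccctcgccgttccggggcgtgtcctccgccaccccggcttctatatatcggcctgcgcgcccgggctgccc
Igfbp4: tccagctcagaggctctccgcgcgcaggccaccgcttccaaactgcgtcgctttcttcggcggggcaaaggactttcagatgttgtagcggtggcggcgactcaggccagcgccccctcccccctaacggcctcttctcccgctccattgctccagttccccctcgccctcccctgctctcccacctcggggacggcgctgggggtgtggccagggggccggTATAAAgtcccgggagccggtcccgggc
Igfbp6: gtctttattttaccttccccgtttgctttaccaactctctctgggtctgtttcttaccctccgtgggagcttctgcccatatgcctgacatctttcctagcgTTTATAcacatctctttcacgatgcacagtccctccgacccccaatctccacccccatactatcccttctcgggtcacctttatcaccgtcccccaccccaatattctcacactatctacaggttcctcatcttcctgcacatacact
The Igf1r window was 77.6% G and C, above 97.6% of the 32851 promoters in the table, and held 2 GC boxes, a motif found in 32.7% of all promoters. The Igfbp3 window was 73.2% G and C and held none of the 6 motifs searched. Igfbp4 held a TATA box within 69.2% G and C. Igfbp6, at 49.6%, lay under the median of all promoters (52.4%). It held the letters of the TATA box on the other strand alone (TTTATA), and on either strand these letters appear in 12.4% of promoters. It also held 2 CCAAT boxes, left in lower case, which 33.8% of promoters hold. The other motifs searched were an ETS site (CCGGAAG, in 6.91% of promoters), an AP-1 site (TGANTCA, in 6.75%) and a CRE (TGACGTCA, in 1.55%). The letters of no motif contain those of another. Of the 10 members 9 had an entry, and 0 of their 10 windows held the ETS letters. Among the other members called higher in segment 1, Igfbp7 had a window of 74% G and C with 4 GC boxes. That of Igf1 was 52.8% G and C with 0 GC boxes. The Igf1r and Igfbp6 starts in RefSeq lie upstream of the gene starts in GENCODE, so the windows of those genes precede a different start from the one behind the gene coordinates below.

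Levels are given as CPM (counts scaled to a common library size) after TMM scaling, in the order batch 3017 and then batch 3097. Totals were 30.5 to 42.3 M counts per library, and mitochondrial genes took 1.57% to 2.88% of counts. Replicates differed by more than sampling noise in all 6 groups, and most of all in control segment 2, at 115.5 by chi-square over its degrees of freedom, where the lowest group was at 22.6. Markers of caput principal cells were present in every library, at 44393 CPM or more in sum over 12 genes, and 0 of those 12 were at 0 in any group. Sperm and germ cell markers summed to 12.3 to 252 CPM in control and 0.511 to 1.10 CPM in ligated libraries. In bulk tissue, fewer cells of a type and less RNA per cell cannot be told apart, and this holds for each value below. Calls are at an adjusted p under 0.05 (edgeR quasi-likelihood test, Benjamini-Hochberg over all genes tested), log2 fold changes carry their SE, and intervals are at 95%.

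**Figure D1:**
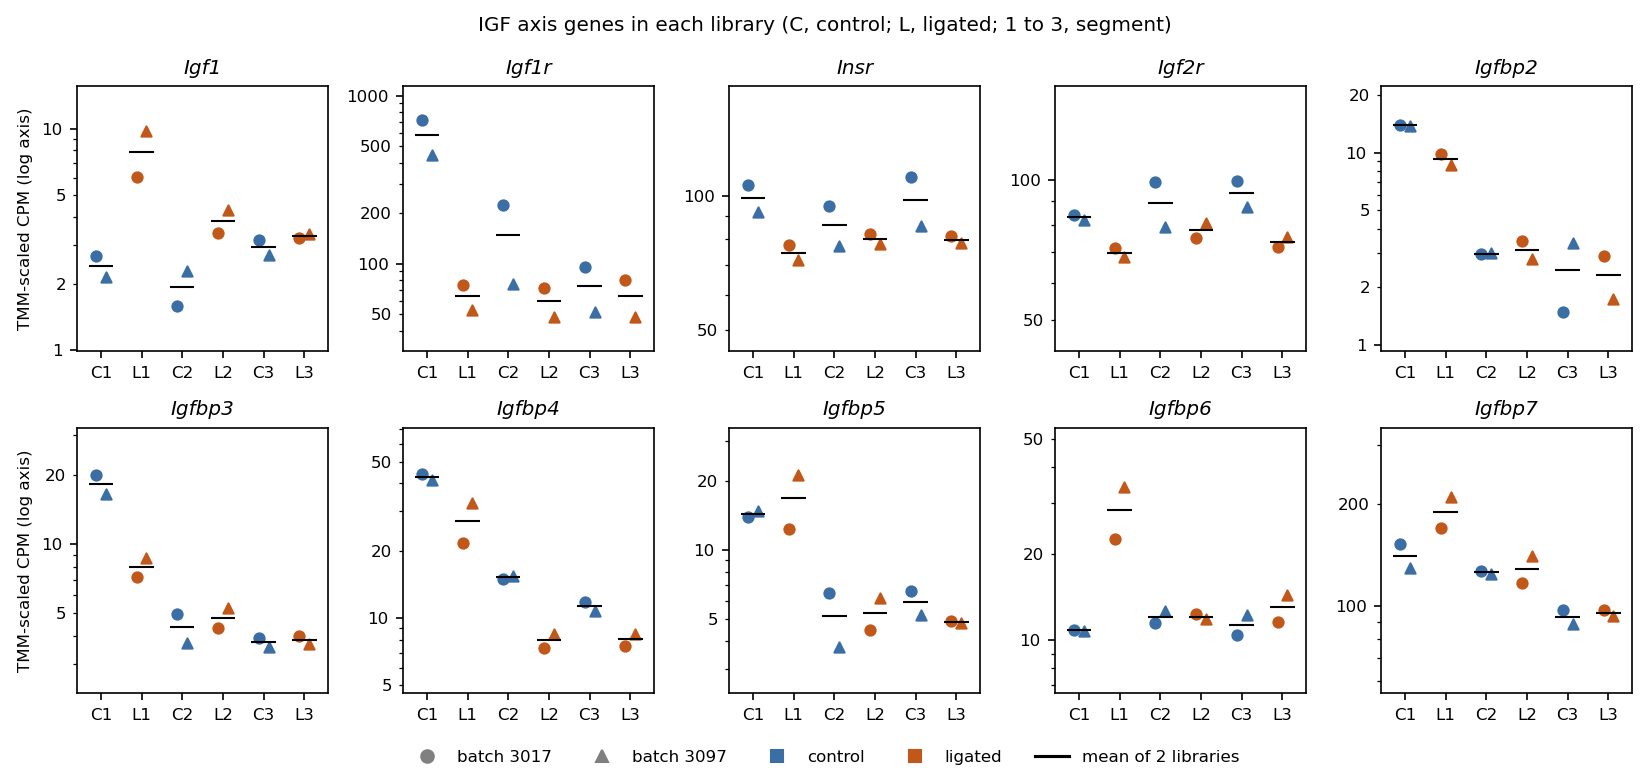
TMM-scaled CPM (log axes that differ between panels) of the 10 genes in each of the 12 libraries; C is control, L is ligated, and 1 to 3 is the segment. Circles are batch 3017, triangles batch 3097 and bars the mean of 2 libraries; Igf1r stands highest in both C1 libraries, while Igf1 and Igfbp6 stand highest in both L1 libraries.

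Igf1 encodes the ligand (ENSMUSG00000020053, GRCm38 chromosome 10, 87858265 to 87937042, plus strand). Its transcript was scarce in every group, at 2.65 and 2.15 CPM in control segment 1, 1.58 and 2.29 in control segment 2, and 3.15 and 2.69 in control segment 3. After ligation it stood at 6.04 and 9.74 CPM in segment 1, 3.37 and 4.29 in segment 2, and 3.22 and 3.36 in segment 3. The ligated libraries lay above the control libraries of their own segment in all 3 segments without overlap. In segment 1 the rise was 1.68 ± 0.27 on the log2 scale, or 3.21-fold (adjusted p = 0.00075). In segment 2 the log2 difference was 0.99 ± 0.27 and missed the threshold (adjusted p = 0.052, interval 0.37 to 1.6), though DESeq2 called it (adjusted p = 0.029). In segment 3 it was 0.17 ± 0.27 (interval -0.43 to 0.76). The control segments were not called apart in any pair, whereas ligated segment 3 lay 1.24 ± 0.26 below ligated segment 1 (adjusted p = 0.027).

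Igf1r encodes the IGF1 receptor (ENSMUSG00000005533, chromosome 7, 67952827 to 68233668, plus strand). Control segment 1 held 714 and 447 CPM. Control segment 2 held 223 and 75.4 CPM, and control segment 3 held 95.4 and 51.9 CPM. The control libraries of segment 1 lay above all 10 other libraries, and those of segments 2 and 3 overlapped.

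After ligation the receptor transcript was not called different between any segments. Ligated libraries held 74.7 and 53.5 CPM in segment 1, 72.2 and 48.3 in segment 2, and 80.2 and 48.2 in segment 3, and the 3 groups overlapped. The fall in segment 1 was 3.15 ± 0.25 on the log2 scale, or 8.89-fold (adjusted p = 7.0e-05), and within-batch log2 ratios were -3.25 and -3.05. In segment 2 Igf1r fell by 1.18 ± 0.23, or 2.27-fold (adjusted p = 0.024). In segment 3 the difference was -0.18 ± 0.23 (adjusted p = 0.74, interval -0.72 to 0.36). The log2 differences between ligated segments were -0.10 (segment 2 against 1, interval -0.64 to 0.44), -0.03 (3 against 1, interval -0.57 to 0.51) and 0.07 (3 against 2, interval -0.47 to 0.61). Against control segment 1, control segment 2 was lower by a log2 difference of -2.07 ± 0.24 (adjusted p = 0.00049) and control segment 3 by -3.00 ± 0.25 (7.1e-05), contrasts that share the control segment 1 libraries with the ligation contrast.

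Igf1r also differed between sequencing batches. It was lower in batch 3097 than in batch 3017 in 6 of 6 groups, by -0.82 ± 0.13 on the log2 scale (adjusted p = 0.015), against 9.36% of all genes called between batches. The gap was widest in control segment 2. The call of the segment 2 fall depended on the setting, and DESeq2 kept it (-1.19, adjusted p = 4.2e-06). It ended without the replicate block (adjusted p = 0.23), in a fit of only the 4 libraries of that contrast (0.21), with no low-count filter (0.058), and without the ligated segment 2 library of batch 3017 (0.21) or of batch 3097 (0.088). The call in segment 1 held whichever library was left out, at -3.35 to -2.96.

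The other receptor genes moved little. Insr (ENSMUSG00000005534, chromosome 8, 3122061 to 3279617, minus strand) held 106 and 92.0 CPM in control segment 1 and 77.4 and 71.7 CPM after ligation. It fell by 0.41 ± 0.09 on the log2 scale (adjusted p = 0.0046), with no overlap of the groups. With library totals alone as the scaling, the median of all genes in this contrast was 0.24 in place of 0.03, the value for Insr was -0.20 and the call ended (adjusted p = 0.10). In segments 2 and 3 its control libraries held 94.6 and 77.0, and 110.0 and 85.3 CPM, against 82.2 and 77.9, and 81.2 and 78.1 CPM after ligation. These were not called apart (adjusted p = 0.54 and 0.17).

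Igf2r (ENSMUSG00000023830, chromosome 17, 12682406 to 12769664, minus strand) held 84.0 and 82.2 CPM in control segment 1 and 71.3 and 68.4 CPM after ligation. The groups did not overlap, yet the log2 difference of -0.25 ± 0.10 missed the threshold (adjusted p = 0.072). An edgeR fit of only the 4 libraries of that contrast called it (adjusted p = 0.018), and DESeq2 did not (0.077). Over all 12 libraries the transcript ran from 68.4 to 99.9 CPM, and the group means differed by at most 1.34-fold. In segment 3 the ligated libraries, at 71.7 and 75.5 CPM, lay under the control libraries at 99.9 and 87.4 CPM (-0.34 ± 0.10, adjusted p = 0.16). Neither Igf2r nor Insr was called in any of the 9 contrasts besides those between ligated and control tissue.

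Levels of different genes can be compared only per length, and were divided by the kilobases of exon annotated for each gene. On this scale Igf1r stood at 34.6 ± 11.3 CPM per kb (SD, n = 2) in control segment 1, against 7.20 ± 0.71 for Insr and 8.93 ± 0.14 for Igf2r. The ratio of Igf1r to Insr was 5.52 and 3.97 in the control segment 1 libraries, 1.93 and 0.802 in control segment 2, 0.71 and 0.498 in control segment 3, and 0.79 and 0.611 in ligated segment 1. Igf1r thus exceeded Insr per length in 3 of the 6 control libraries and in 0 of the 6 ligated ones. With the longest transcript as the length, Igf1r still ranked second of the 10 genes in control segment 1 and Igfbp7 first in all 6 groups. Igf1 ranked last in all 6 groups by either length, at 0.195 to 0.797 CPM per kb.

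**Figure D2:**
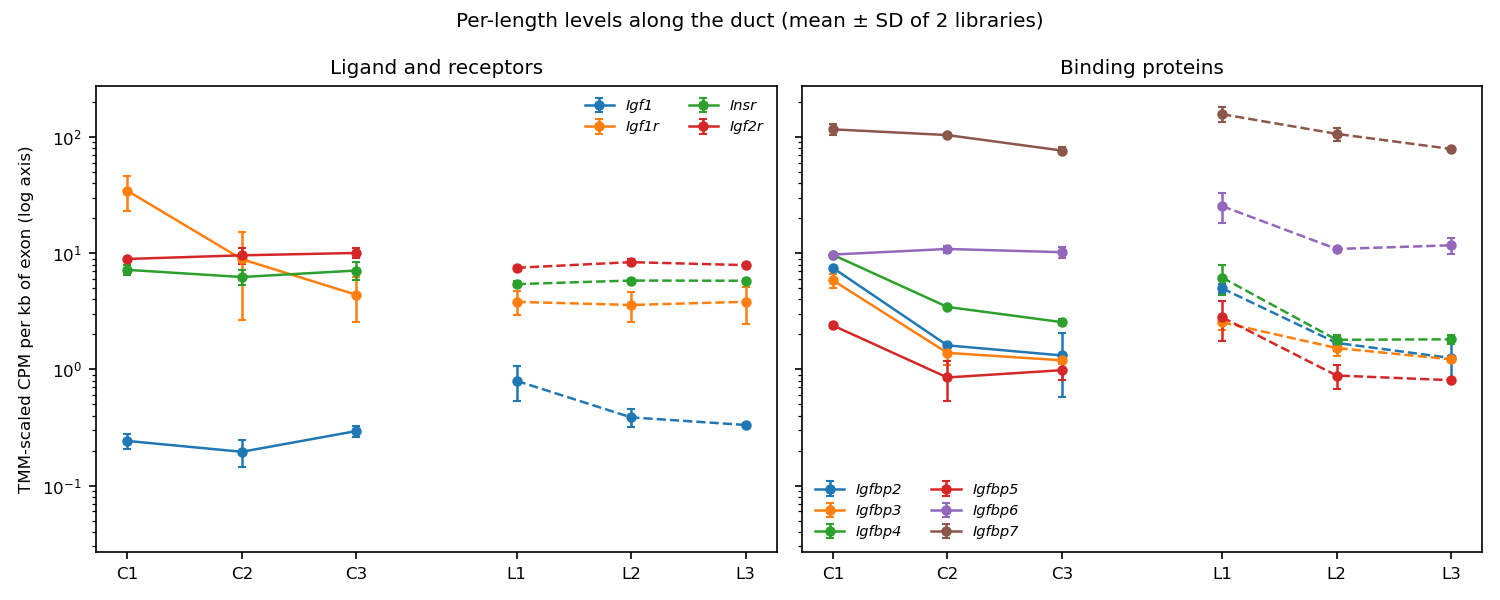
TMM-scaled CPM per kb of annotated exon (log axis) for the ligand and receptors (left) and the binding proteins (right), as mean ± SD of 2 libraries in control (C, solid) and ligated (L, dashed) segments 1 to 3. Igf1r falls from 34.6 in C1 to 4.39 in C3 and stays between 3.59 and 3.82 in ligated tissue, while Igfbp7 lies above every other gene in all 6 groups.

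Among the binding proteins, Igfbp3 encodes the main carrier of IGF in serum (ENSMUSG00000020427, chromosome 11, 7206086 to 7213923, minus strand). Its libraries held 20.1 and 16.6 CPM in control segment 1, 4.99 and 3.70 in control segment 2, and 3.92 and 3.58 in control segment 3. Ligated libraries held 7.19 and 8.73 CPM in segment 1, 4.30 and 5.26 in segment 2, and 3.98 and 3.67 in segment 3. Control segment 1 lay above all others, ligated segment 1 lay above the remaining 8 libraries, and these overlapped. The fall after ligation in segment 1 was 1.2 ± 0.19 on the log2 scale, or 2.30-fold (adjusted p = 0.00079). In segments 2 and 3 the differences were 0.15 (interval -0.31 to 0.60) and 0.03 (interval -0.43 to 0.48).

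Igfbp4 encodes a binding protein that holds IGF off its receptor until it is cut (ENSMUSG00000017493, chromosome 11, 99041244 to 99054392, plus strand). It held 44.2 and 41.5 CPM in control segment 1 and 21.7 and 32.8 CPM after ligation. In segment 2 the values were 15 and 15.5 CPM in control and 7.36 and 8.52 CPM in ligated tissue, and in segment 3 they were 11.8 and 10.8 against 7.52 and 8.52 CPM. Ligated libraries lay under control libraries in each segment without overlap. The fall was called in segment 1, at 0.67 ± 0.16 (adjusted p = 0.0062), and in segment 2, at 0.94 ± 0.16 (adjusted p = 0.010). In segment 3 the log2 difference was -0.50 ± 0.16 (adjusted p = 0.19). Without a segment 1 library of batch 3017 the first call ended (adjusted p = 0.065 without the control and 0.063 without the ligated library, at -0.53 and -0.41). The segment 2 call ended without the ligated library of batch 3017 (0.12) or 3097 (0.068), and in a fit of only the 4 libraries of that contrast (0.086).

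Igfbp6 encodes a binding protein with a preference for IGF2 (ENSMUSG00000023046, chromosome 15, 102144362 to 102149511, plus strand). It was even along the control duct, at 10.9 and 10.8 CPM in segment 1, 11.5 and 12.7 in segment 2, and 10.5 and 12.2 in segment 3. In ligated segment 1 it held 22.5 and 34.2 CPM, above all 10 other libraries. The rise was 1.36 ± 0.16 on the log2 scale, or 2.57-fold (adjusted p = 0.00012), and it was called whichever library was left out. In ligated segments 2 and 3 the libraries held 12.3 and 11.9, and 11.6 and 14.4 CPM, and overlapped those of control tissue.

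Igfbp7 encodes a secreted protein that binds IGF weakly and is also a known ligand of the endothelial receptor CD93 (ENSMUSG00000036256, chromosome 5, 77349240 to 77408041, minus strand). It held 152 and 130.0 CPM in control segment 1, 127 and 125 in control segment 2, and 97.1 and 88.2 in control segment 3. After ligation it held 170 and 210.5 CPM in segment 1, 117 and 141 in segment 2, and 97.4 and 93.8 in segment 3. The groups of segment 1 did not overlap, and the rise of 0.43 ± 0.13 was called (adjusted p = 0.020). It was 0.29 without the control library of batch 3097 and 0.27 without the ligated one, and was not called in either fit. Its exons overlap those of Polr2b on the other strand by 85 bases, and the sources used here do not give the strand setting of the counting.

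Igfbp2 and Igfbp5 were not called after ligation in any segment in the main fit. Igfbp2, whose product carries an integrin-binding motif (ENSMUSG00000039323, chromosome 1, 72824503 to 72852474, plus strand), held 13.9 and 13.8 CPM in control segment 1 and 9.77 and 8.65 CPM after ligation. The groups did not overlap, and the log2 difference was -0.59 ± 0.33 (adjusted p = 0.18, interval -1.35 to 0.17). An edgeR fit of only the 4 libraries of that contrast called it (adjusted p = 0.0088), and DESeq2 did not (0.16). Igfbp5, whose product binds extracellular matrix (ENSMUSG00000026185, chromosome 1, 72857932 to 72874884, minus strand), held 13.9 and 14.8 CPM in control and 12.4 and 21.4 CPM in ligated segment 1. There the ligated libraries lay on either side of the control libraries (0.22 ± 0.31, adjusted p = 0.58). In the other 4 groups Igfbp2 ran from 1.48 to 3.45 CPM and Igfbp5 from 3.77 to 6.65 CPM.

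**Figure D3:**
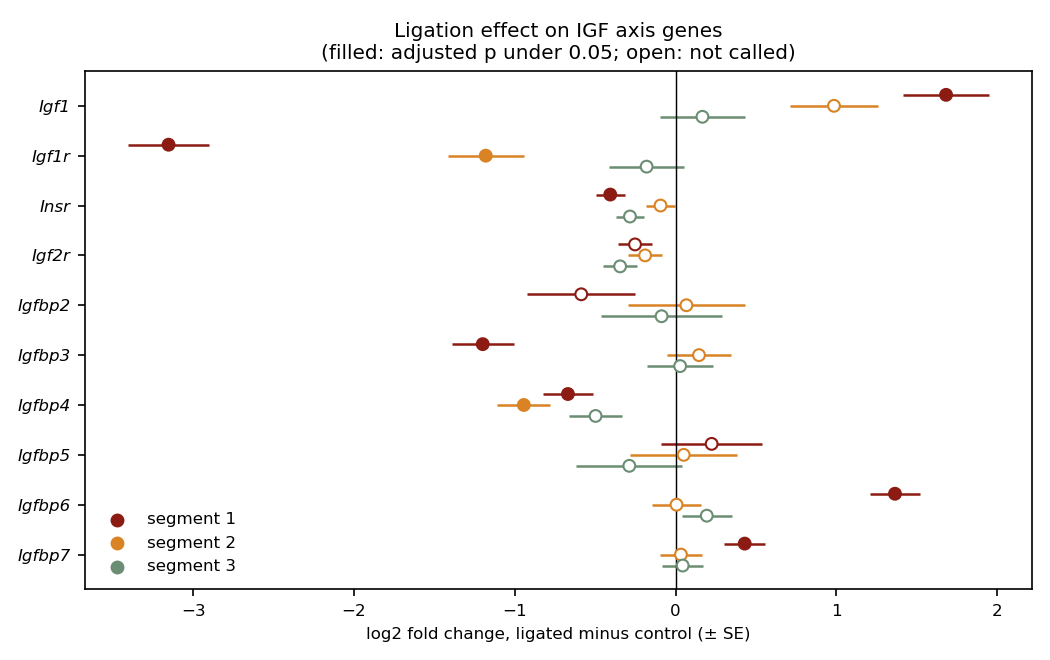
Log2 fold change of ligated against control tissue (x axis, ± SE) for the 10 genes in segments 1, 2 and 3. Filled points passed an adjusted p of 0.05 in edgeR's quasi-likelihood test: 7 in segment 1, 2 in segment 2 and 0 in segment 3.

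Counted together, 7 of the 10 members were called between ligated and control segment 1, 3 higher and 4 lower. The background was 48.7% of all genes tested, 24.4% higher and 24.4% lower, so the contrast changed a large part of the transcriptome and the members' count is to be read against that. Their median log2 fold change was -0.33, beside 0.03 over all genes. All 7 had the same direction in both batches. In segment 2, 2 of 10 were called, both lower, against 9.86% of all genes (2.87% higher and 7% lower). In segment 3, 0 of 10 were called by edgeR, against 1.72% of all genes (0.312% higher and 1.41% lower). There 3 members had an unadjusted p under 0.05, and DESeq2 called 0.

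Whether the effect of ligation differed from segment to segment was tested directly. Between segments 2 and 1 it was called for 3 of 10 members, against 18.5% of all genes (8.2% higher and 10.3% lower): Igf1r, Igfbp3 and Igfbp6. Between segments 3 and 1 it was called for 4, against 30.7% (14.7% higher and 16.1% lower): Igf1, Igf1r, Igfbp3 and Igfbp6. For Igf1r the log2 effect was less negative by 1.97 ± 0.33 in segment 2 (adjusted p = 0.0074) and by 2.97 ± 0.33 in segment 3 (0.00088) than in segment 1. For Igfbp6 it was smaller by a log2 difference of -1.36 ± 0.22 in segment 2 (0.0039) and -1.17 ± 0.22 in segment 3 (0.0037). Igfbp4, which was called in segments 1 and 2, did not differ by this test (-0.27 ± 0.23, adjusted p = 0.43, interval -0.78 to 0.23). Between segments 3 and 2 edgeR called 0 members and 0% of genes, with 1 member and 1917 genes at an unadjusted p under 0.05. DESeq2 called 0 members and 165 genes there.

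Of the binding protein genes, 4 of 6 were lower in control segment 2 than in control segment 1, and 5 of 6 were lower in control segment 3, while Igfbp6 was not called in either. Against control segment 1, 5 of 10 members were lower in control segment 2 and 0 higher, against 43.2% of all genes called, 22.1% higher and 21.1% lower. These were Igf1r, Igfbp2, Igfbp3, Igfbp4 and Igfbp5. The binding proteins' log2 differences were -2.21 ± 0.36 for Igfbp2 (adjusted p = 0.0015), -2.08 ± 0.20 for Igfbp3 (9.1e-05), -1.50 ± 0.16 for Igfbp4 (0.00014) and -1.49 ± 0.33 for Igfbp5 (0.0076). In control segment 3 the same 5 and Igfbp7 were lower than in segment 1, which makes 6 of 10 against 51.2% of all genes called, 26.2% higher and 25% lower. Igfbp7 was lower by a log2 difference of -0.61 ± 0.13 (0.0036). The call of Igfbp5 in segment 3 (-1.28 ± 0.32, adjusted p = 0.011) ended without the control library of batch 3097 of segment 1 (0.051) or of segment 3 (0.084). Between control segments 3 and 2 edgeR called 0 members, against 1.79% of genes (0.874% higher and 0.911% lower), while 3 had an unadjusted p under 0.05 and DESeq2 called Igf1r and Igfbp7.

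Between ligated segments 2 and 1, 2 of 10 members were called, both lower, against 1.3% of all genes (0.0885% higher and 1.21% lower): Igfbp4 at -1.77 ± 0.16 (adjusted p = 0.0046) and Igfbp6 at -1.20 ± 0.15 (0.011). Between ligated segments 3 and 1, 7 of 10 were called, all lower, against 5.8% of all genes (1.72% higher and 4.08% lower). They were Igf1, Igfbp2, Igfbp3, Igfbp4, Igfbp5, Igfbp6 and Igfbp7. In that contrast Igfbp2 was lower by a log2 difference of -2.0 ± 0.36 (0.019), Igfbp5 by -1.79 ± 0.33 (0.022) and Igfbp7 by -0.99 ± 0.13 (0.0072). Both counts moved with single libraries. The count of 7 became 1 without the ligated segment 3 library of batch 3017 or the ligated segment 1 library of batch 3097, and 3 without the ligated segment 3 library of batch 3097. The count of 2 became 0 without either ligated segment 2 library and 1 without the ligated segment 1 library of batch 3097. It became 4 without either control segment 2 library, 6 with DESeq2, and 7 in a fit of the 4 libraries of that contrast. Between ligated segments 3 and 2 edgeR called 0 members and 0% of genes, with 1 member and 1344 genes at an unadjusted p under 0.05, and DESeq2 called 0 members and 32 genes.

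Taken per length, the make-up of the binding protein transcripts differed between groups. The 6 genes summed to 162 and 142 CPM per kb in control segment 1 and 176 and 223 CPM per kb in ligated segment 1. Igfbp7 made up 75.8% to 87.4% of the sum in the 12 libraries. Igfbp6 made up 6.06% and 6.82% in control segment 1 and 11.5% and 13.8% after ligation. Igfbp4 made up 6.18% and 6.63% in control and 2.80% and 3.33% in ligated segment 1, and Igfbp3 3.96% and 3.73% against 1.31% and 1.25%, and for these 3 genes the shares of the 2 groups did not overlap. These shares are given without a test.

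Markers of several cell types also moved between ligated and control segment 1, where 24.4% of all genes were called higher and 24.4% lower. Which cells hold the members' transcripts was not measured. In segment 2, where 9.86% of all genes were called, 0 fibroblast, 0 endothelial and 0 macrophage and dendritic cell markers were called. Of the smooth muscle and pericyte markers 1 was higher and 1 lower there, and of 12 principal cell markers 1 was higher and 6 were lower. Of 10 fibroblast markers 8 were called higher and 1 lower in ligated segment 1, and their sum without Pdgfra, the largest, was 101 to 129 CPM in control and 207 to 316 CPM after ligation, which is the direction of Igf1 and Igfbp6. With Pdgfra, which fell from 519 to 32.2 CPM, the sum ran from 628 to 640 CPM in control and from 233 to 355 CPM in ligated libraries. Of 10 smooth muscle and pericyte markers 6 were higher and 2 lower, and their sum was 3176 to 3238 CPM in control against 512 to 639 CPM in ligated libraries. Actg2, the largest, fell from 2864 to 11.5 CPM, and without it the sum was 305 to 382 CPM against 501 to 627 CPM. Of 12 macrophage and dendritic cell markers 4 were higher and 0 lower, with sums of 174 to 194 CPM against 236 to 266 CPM. Cd68, the largest over all libraries, rose from 6.15 to 53.8 CPM. Without it the sums overlapped, at 169 to 187 CPM against 178 to 217 CPM. Of 10 endothelial markers 7 were lower and 0 higher, with sums of 132 to 136 CPM against 53.2 to 63.6 CPM, the direction of Igf1r, Igfbp3 and Igfbp4. Principal cell markers went the same way, as given below. In control tissue the endothelial sum was 38 to 39.8 CPM in segment 2 and 35.2 to 38.5 CPM in segment 3, while the fibroblast sum without Pdgfra was 129 to 145 and 152 to 157 CPM. The sums without the largest marker were chosen after seeing the data. None of these markers was at 0 in both libraries of any of the 6 groups. The part of these cell types in the members' changes was not tested.

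The remaining lists were also read in segment 1, to be set against the same 24.4% of all genes higher and 24.4% lower. Of 12 principal cell markers 0 were higher and 8 lower, and of 10 sperm and germ cell markers 0 were higher and 9 lower. Both went in the direction of Igf1r, Igfbp3 and Igfbp4, and their part was not tested either. The principal cell sum was 83817 to 102290 CPM in control and 44393 to 49070 CPM in ligated segment 1. Without Gpx5, the largest, it was 57185 to 65866 CPM against 9706 to 10252 CPM. In control segments 2 and 3 the principal cell sum was 88038 to 97921 and 73566 to 78585 CPM. Without Gpx5 it was 25407 to 41937 and 20007 to 21163 CPM in those segments. Higher and lower calls after ligation in segment 1 numbered 2 and 3 among 6 basal cell genes and 6 and 1 among 8 clear and narrow cell genes. They numbered 6 and 0 among 7 tested genes of ciliated efferent duct cells, and 1 and 2 among 6 blood genes. For T, NK and B cells they were 1 and 1 of 5 tested, and all 6 adipocyte and all 6 neutrophil markers stayed under the low-count filter.

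Other ligands and carriers of the axis were at or near the limit of detection. Ins1 and Ins2, the insulin genes, had 0 counts in all 12 libraries. Igf2 had 0 counts in 6 libraries and at most 4 in the others. Igfbp1 was counted in segment 1 alone, with 4 and 9 counts in control and 17 and 10 in ligated libraries, and 0 in the other 8. Igfals, which encodes the acid-labile subunit of the serum IGF complex, had 0 counts in control segment 1 and 6 and 3 in ligated segment 1. It had 11 and 4 counts in control and 15 and 13 in ligated segment 2. In segment 3 it had 10 and 8 counts in control and 6 and 7 in ligated libraries. A count of 0 allows up to 3 counts in a library, which limits what can be said of these genes.

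The wider pathway was read through 93 listed genes, of which 88 were tested. In segment 1, 21 were higher and 29 lower after ligation, with a median log2 fold change of -0.05 beside 0.03 over all genes, and the share called is to be read against the 48.7% of all genes. In segment 2, 0 of 88 were higher and 2 lower, against 9.86% of all genes (2.87% higher and 7% lower). They were Ghr, the growth hormone receptor gene, at -1.48 ± 0.36 (adjusted p = 0.040), and the integrin gene Itgav at -0.45 ± 0.11 (0.031). In segment 3, 0 of 88 were called, against 1.72% of all genes.

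Receptor substrates and adaptors were 2 higher and 6 lower of 14 in segment 1. Sh2b2, an adaptor of the insulin receptor, fell from 5.93 ± 2.20 to 0.784 ± 0.317 CPM (SD, n = 2), a log2 change of -2.92 ± 0.50 (adjusted p = 0.0012). Ptpn1, the phosphatase that switches off both receptors, fell from 117 ± 4.13 to 59.2 ± 5.45 CPM (-0.98 ± 0.10, 7.9e-05). Gab1, a docking protein, rose by 0.60 ± 0.08 (0.00037), and Rack1, a scaffold, by 0.43 ± 0.13 (0.018).

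In the PI3K to mTOR arm 3 of 20 were higher and 9 lower. Gsk3b, a kinase that AKT inhibits, fell by 1.14 ± 0.09 (adjusted p = 2.2e-05), and Rptor, which encodes the mTORC1 subunit raptor, fell by 1.06 ± 0.09 (3.6e-05). Eif4ebp1, a repressor of translation that mTORC1 switches off, rose from 6.80 ± 0.65 to 19.7 ± 0.74 CPM (1.54 ± 0.14, 3.8e-05). In the RAS to ERK arm 4 of 14 were higher and 5 lower. Araf, a RAF kinase gene, rose from 196 ± 20.2 to 542 ± 115 CPM (1.46 ± 0.18, 0.00024) and Rps6ka1, encoding an ERK-activated kinase, by 0.84 ± 0.10 (0.00019). The exchange factor gene Sos2 fell by 0.74 ± 0.10 (0.00040). Among FOXO factors and their known targets 4 of 14 were higher and 4 lower. Ccng2 fell by 1.16 ± 0.15 (0.00026) and the ubiquitin ligase gene Fbxo32 by 0.98 ± 0.28 (0.015), while Sesn1 rose by 0.58 ± 0.09 (0.00053) and Pik3ip1, an inhibitor of PI3K, by 0.45 ± 0.14 (0.025).

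Other lists covered related and accessory receptors, binding protein cleavage, growth hormone input, and ligands and carriers outside the members. Of 8 related and accessory receptors 3 were higher and 4 lower. Lrp2, the endocytic receptor megalin, rose from 7.33 ± 1.44 to 32.7 ± 1.47 CPM (2.16 ± 0.19, adjusted p = 4.5e-05), and Insrr, the orphan member of the insulin receptor family, from 2.55 ± 0.35 to 9.36 ± 4.46 CPM (1.85 ± 0.49, 0.015). Cd93, known from endothelium, fell by 1.31 ± 0.31 (0.0067), and Lrp6, a WNT co-receptor, by 0.64 ± 0.14 (0.0049). Of 8 genes of binding protein cleavage 2 were higher and 1 lower. The protease genes Htra1 and Mmp2 rose by 0.66 ± 0.14 (0.0040) and 0.91 ± 0.31 (0.037), whereas Pappa, whose product cuts IGFBP4, held 1.47 and 1.41 CPM on average in control and ligated tissue (-0.05 ± 0.39, 0.93). Of 7 genes of growth hormone input 2 were higher and 0 lower: Stat5a, from 15.6 ± 1.11 to 39.8 ± 7.80 CPM (1.36 ± 0.18, 0.00035), and Stat5b (0.57 ± 0.09, 0.00056). Of the 3 tested genes in the list of other ligands and carriers (Igfbp1, Igfals and H19), Igfals was called higher and 0 were lower.

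**Figure D4:**
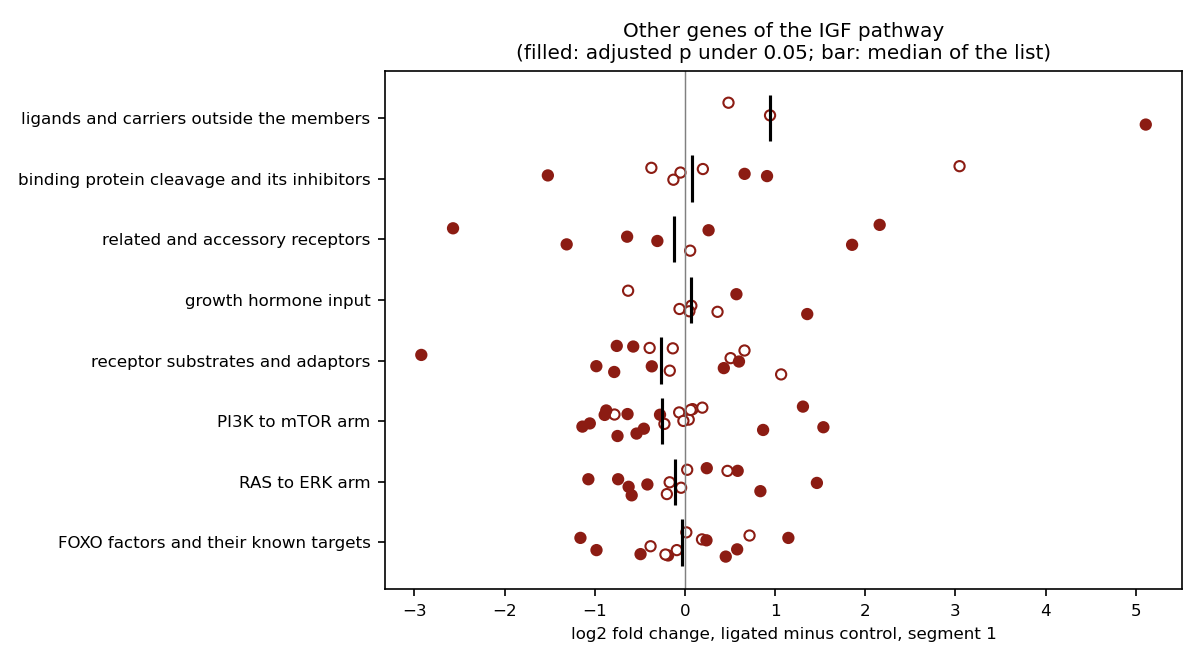
Log2 fold change of ligated against control segment 1 (x axis) for the 88 tested genes of 8 pathway lists; filled points were called at an adjusted p under 0.05 and bars are list medians. Points of most lists lie on both sides of 0; the point at the far right is Igfals, whose fitted value depends on the prior count because its control libraries were at 0.

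The genes most like each member were taken by Pearson correlation of log2 CPM over the 12 libraries, which share batches and groups, and are given as a description. For Igf1r they were Samd4b (r = 0.99), Adgrl1 (0.99) and H13 (0.99). For Igfbp3 they were Lamb3 (0.99), Kcnk2 (0.98) and Dnajc22 (0.98). For Igfbp6 they were Pik3ap1 (0.97), Timp2 (0.94) and C7 (0.94), and for Igf1 they were Fxyd6 (0.95), Dcdc2a (0.93) and Mal (0.92). For Igfbp4 they were Slc36a4 (0.96), Fetub (0.96) and Col14a1 (0.96), and for Igfbp5 Nid1 (0.96), Soga1 (0.95) and Slco2b1 (0.94). Igfbp7 went most closely with Tril (0.96), Id4 (0.94) and Rbms1 (0.93), and Igfbp2 with Slc12a4 (0.94), Mxra8 (0.94) and Msn (0.94). Insr went with Ccdc88a (0.96), Tet2 (0.95) and Nf1 (0.95), and Igf2r with Rnf24 (0.94) and Eml5 (0.91).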

How the data were processed

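The authors deposited whole-number read counts for each gene, not normalized, in a table per sequencing batch. Per the submitters' processing notes, Trim Galore 0.6.0, cutadapt, FastQC and STAR 2.7.0e were used on GRCm38 (mm10). The sources used here give no counting tool, strand setting or annotation. Per the labels' protocols, 500 ng of RNA went into directional libraries after polyA selection. Columns name groups, so libraries are named by group and batch. The labels' replicate numbers were not tied to batches.

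All 55536 identifiers matched GENCODE mouse release 21. edgeR 4.0.16 (R 4.3.3) filtered genes (filterByExpr, minimum count 10), scaled by TMM and fitted a robust quasi-likelihood model with group and batch to all 12 libraries. Batch entered as a replicate block because the design text names it. Libraries of a batch deviated together between groups (r = 0.083 to 0.55). Tests were two-sided, with residual df 5 and a common biological coefficient of variation of 0.153. The 12 contrasts share libraries. Within-batch ratios use CPM plus 0.5, and correlations a prior count of 2. The fit was tested on simulated data. Alternatives were DESeq2 1.42.0, library totals, other filters, no block, the contrast's libraries alone and each library left out. Length was union exon or longest transcript.

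The members and lists were chosen with earlier results of these data known. Besides all members, the text names by rule up to 2 called genes at each end of each pathway list and ligation contrast (at least 5 CPM in the higher group and the same direction in both batches), and the 3 genes most correlated with each member (mean of at least 5 CPM). Pappa and the genes outside the filter were named besides. Some genes that the rule takes are not reported here.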

Additional observations from a re-analysis of the deposited data

Results flagged for a closer look

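The ligation effect differed between segments, by a test of the difference itself (edgeR quasi-likelihood test, adjusted over all genes), for 4 of the 10 members. Of all genes, 18.5% were called between segments 2 and 1 and 30.7% between segments 3 and 1. The members' counts are to be read against those shares. Igf1r, the receptor, differed by 1.97 between segments 2 and 1 and by 2.97 between segments 3 and 1 on the log2 scale, and its ligated libraries were the lower ones in both batches of all 3 segments. The first of these ended without the replicate block (adjusted p = 0.18). Igfbp3 differed by 1.34 and 1.23 in the same order. The first ended without the control segment 1 library of batch 3017 (adjusted p = 0.059) or the ligated segment 2 library of batch 3097 (0.054). Igfbp6 differed by -1.36 and -1.17, and both held whichever library was left out. Igf1 differed by -1.52 between segments 3 and 1, and this ended without any of 4 libraries: control segment 3 of batch 3017 (0.070), or, of batch 3097, control segment 1 (0.062), ligated segment 1 (0.059) or ligated segment 3 (0.056).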

How the results depend on the processing

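In 12 contrasts 36 of 120 member values were called, and 21 of these stayed called with each library left out in turn, 19 under all 18 alternatives. Of the other settings' values 34 gained a call, 44 lost one and 0 reversed a call; the cause was not tested. Members called between ligated and control segment 2 numbered 1 without the replicate block and 0 with the contrast's libraries alone (2 in the main setting, 0 to 3 with a library left out). Between ligated segments 2 and 1 they numbered 7 with the contrast's libraries alone and 6 with DESeq2 (2, and 0 to 4). Between ligated segments 3 and 2 the contrast's libraries alone gave 1, and between control segments 3 and 2 DESeq2 gave 2 (0, and 0 to 1). With a library left out, ligated segments 3 and 1 gave 1 to 7, ligation in segment 1 gave 6 to 8, and the difference of effects between segments 3 and 2 gave 0 to 1. Over all genes, calls in segment 2 numbered 1162 without the replicate block, 149 with the contrast's libraries alone, and 148 to 4066 with a library left out. In segment 3 they numbered 211 with the contrast's libraries alone, 649 with DESeq2 and 70 to 501 with a library left out. Library totals alone gave 6505 higher and 3130 lower genes in segment 1, and 1598 and 1071 in segment 2 (551 and 1344 with TMM). Of 60 per-length levels 36 moved by over 1 SD with the longest transcript and 12 with library totals. With 2 libraries a group and residual df 5, small differences were not detectable.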
